A study of Mus musculus with 10 samples.

Results

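The 10 genes described here are the D-type cyclins Ccnd1, Ccnd2 and Ccnd3, the CDK inhibitors Cdkn1a, Cdkn1b, Cdkn1c, Cdkn2a and Cdkn2b, and the p53 gene Trp53 with its negative regulator Mdm2. They were taken by symbol from the 31053 genes in the count matrices, and all 10 were found. They were followed in 10 single-cell RNA-seq libraries of alveolar type 2 (AT2) lineage cells from mouse distal lung, as sums over each library and in cycling and non-cycling cells. Tamoxifen was given at 3 doses of 0.2 mg per g body weight to adult mice carrying Sftpc-CreERT2, whose Cre acts from the surfactant protein C promoter of AT2 cells. In R26R-Confetti mice the RFP+ and the YFP+ cells are both wildtype, and each colour gave 1 library. In the mice of a mosaic line RFP+ cells express an oncogenic mutant gene from the recombined reporter allele, and the YFP+ cells are wildtype. The time points were 4 days and 2 weeks, with 2 libraries per colour and time. The labels give no time for Confetti, and the study's methods give 2 weeks. Each sample pooled at least 2 lungs, so a library is a pool and not a mouse, and p-values measure the spread between libraries. The study's methods count Confetti as 1 sample, and its 2 colours were fitted here as 2 libraries. Whether these 2 libraries share their mice is not in the labels. The mice were of both sexes and of mixed background (C57BL/6Brd-Tyrc-Brd).

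D-type cyclins bind CDK4 and CDK6 in response to growth factor signals, and the kinases phosphorylate RB, which frees E2F factors and lets cells enter S phase. The CIP/KIP proteins p21 (Cdkn1a), p27 (Cdkn1b) and p57 (Cdkn1c) bind cyclin-CDK complexes of several kinds, whereas the INK4 proteins p16Ink4a (Cdkn2a) and p15 (Cdkn2b) bind CDK4 and CDK6. Cdkn2a also encodes p19Arf in another reading frame, and Arf binds MDM2, the ubiquitin ligase that keeps p53 low. Cdkn1a and Mdm2 are both transcribed by p53. AT2 cells make surfactant, rarely divide in the resting lung, and pass through a transitional state after injury.

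On mouse build GRCm38 with GENCODE M21, Cdkn2a (ENSMUSG00000044303) lies at chr4:89274471-89294653 on the minus strand, and Cdkn2b (ENSMUSG00000073802) begins 11645 bases further along at chr4:89306299-89311039. The annotation gives Cdkn2a 2 coding transcripts with separate first exons, at chr4:89281986-89282192 for p16Ink4a and chr4:89294334-89294653 for p19Arf, and last exons that both begin, on the minus strand, at base 89274774 and end at 89274471 and 89274541. The 3′ counts used here therefore add both transcripts and cannot tell p16Ink4a from p19Arf. Ccnd1 lies at chr7:144929931-144939925, Ccnd2 at chr6:127125162-127152193, Ccnd3 at chr17:47505051-47599691, Cdkn1a at chr17:29090976-29100727 and Cdkn1b at chr6:134920401-134925513. Cdkn1c lies at chr7:143458339-143461050, Trp53 at chr11:69580359-69591873 and Mdm2 at chr10:117688875-117710758.

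Promoter windows from RefSeq (GRCm38.p6) run from 250 bases before to 50 bases after a gene's start, and 7 of the 10 members matched a window, with 10 windows in all. The 5 windows below belong to the p53-linked genes Cdkn1a and Mdm2 and to the neighbouring INK4 genes, whose levels the results turn on. Capitals mark 4 searched motifs on either strand: E2F (TTTCGCGC, TTTGGCGC or TTTCCCGC), AP-1 (TGANTCA), the GC box (GGGCGG) and the p53 decamer.
Cdkn1a upstream start, chr17:29090729-29091028, plus strand: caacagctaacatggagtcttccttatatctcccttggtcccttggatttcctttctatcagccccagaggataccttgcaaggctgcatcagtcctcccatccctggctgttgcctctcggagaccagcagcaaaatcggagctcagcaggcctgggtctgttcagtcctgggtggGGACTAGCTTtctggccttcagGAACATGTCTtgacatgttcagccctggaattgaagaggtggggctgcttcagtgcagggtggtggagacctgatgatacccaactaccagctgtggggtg
Mdm2, chr10:117710709-117711008, minus strand: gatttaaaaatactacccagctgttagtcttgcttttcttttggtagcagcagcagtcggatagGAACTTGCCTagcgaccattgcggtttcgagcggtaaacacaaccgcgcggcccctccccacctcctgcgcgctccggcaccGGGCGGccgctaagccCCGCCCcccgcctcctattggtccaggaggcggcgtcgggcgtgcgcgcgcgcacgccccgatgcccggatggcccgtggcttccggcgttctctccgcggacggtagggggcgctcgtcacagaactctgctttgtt
Cdkn2a upstream start (p19Arf), chr4:89294570-89294869, minus strand: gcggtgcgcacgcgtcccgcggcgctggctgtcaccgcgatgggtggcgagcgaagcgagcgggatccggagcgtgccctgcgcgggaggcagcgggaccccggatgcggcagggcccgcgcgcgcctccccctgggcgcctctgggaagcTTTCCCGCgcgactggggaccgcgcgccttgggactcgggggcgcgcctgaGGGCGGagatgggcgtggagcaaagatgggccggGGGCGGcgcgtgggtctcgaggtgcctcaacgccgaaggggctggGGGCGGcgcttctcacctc
Cdkn2a downstream start (p16Ink4a), chr4:89282143-89282442, minus strand: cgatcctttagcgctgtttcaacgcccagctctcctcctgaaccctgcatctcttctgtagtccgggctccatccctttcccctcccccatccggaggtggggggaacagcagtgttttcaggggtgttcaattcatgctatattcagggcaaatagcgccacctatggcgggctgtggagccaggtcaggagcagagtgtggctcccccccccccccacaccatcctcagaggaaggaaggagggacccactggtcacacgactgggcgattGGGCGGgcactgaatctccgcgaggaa
Cdkn2b, chr4:89310983-89311282, minus strand: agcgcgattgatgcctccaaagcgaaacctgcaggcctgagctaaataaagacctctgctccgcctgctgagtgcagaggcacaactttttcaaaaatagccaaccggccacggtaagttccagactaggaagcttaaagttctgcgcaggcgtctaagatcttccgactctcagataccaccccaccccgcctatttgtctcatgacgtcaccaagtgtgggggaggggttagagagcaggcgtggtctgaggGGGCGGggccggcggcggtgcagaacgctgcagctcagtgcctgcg
The upstream Cdkn1a window held 2 p53 decamers, at 73 to 64 and 51 to 42 bases before the start. A downstream Cdkn1a window, chr17:29093519-29093818 and not printed, held 0 p53 decamers and 2 GC boxes. The Mdm2 window held 1 p53 decamer, at 186 to 177 bases before the start. The window of Trp53 itself held 1 decamer. Among all 32851 windows of the same length, 8.36% held a p53 decamer. An E2F motif stood 99 to 92 bases before the p19Arf start and in no other member window, and 1.84% of all windows held one. GC boxes, in 35.7% of all windows, numbered 3 at the p19Arf start and 1 each at the p16Ink4a start and in Cdkn2b. No member window held AP-1, which 7.81% of all windows did. These are letter matches and not measured binding.

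The matrices held 42012 barcodes, of which 32698 were kept by the quality filters. Removing immune, endothelial, ciliated and mesenchymal clusters left 29580 alveolar cells. Alveolar UMIs (unique molecules) per library ran from 7170585 to 69676540, and the median per cell was 3127 to 6528 except in 2 weeks RFP, with 15387 and 13095. Summed AT2 markers stood at 93312 to 210377 CPM (counts scaled to a common library total) with all 8 markers detected in each library, and the summed immune markers at 12.5 to 21.3 CPM. The 2 libraries of a group were not alike. The cells of 4 days replicate 1 were 89.2% (RFP) and 94.6% (YFP) AT2-like, whereas replicate 2 was 47.9% (RFP) and 88.8% (YFP) primed AT2-like, with 36.1% DATP-like cells in RFP. Sex-linked RNA also differed: Ddx3y was at 0 in both Confetti libraries, Xist was under 0.5 CPM in every replicate 2 library, and replicate 1 libraries held both, so sex cannot be told apart from the Confetti comparisons. Only 239 of 41773 barcode sequences occurred in more than 1 library. Levels below are CPM scaled by edgeR's TMM factors. They compare a gene between samples, and levels of different genes are not compared.

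Of the D-type cyclins, Ccnd1, the form classically induced by growth factors, was highest in mutant cells at 2 weeks, Ccnd3 was lowest in mutant cells, and Ccnd2 followed the replicate number more than the colour. Ccnd1 measured 140 and 130 CPM in Confetti RFP and Confetti YFP. The 4 days YFP libraries had 127 and 181 and the 2 weeks YFP libraries 151 and 192. The 4 days RFP libraries had 181 and 213 and the 2 weeks RFP libraries 258 and 376. The 2 mutant libraries at 2 weeks thus stood above all others, while at 4 days the lower RFP library (181.4) and the higher YFP library (181.2) nearly met. In either direction, 53.3% of all genes had RFP and YFP apart at 2 weeks and 31.9% at 4 days. For 2 weeks RFP and Confetti the share was 73.6%. The log2 difference between 2 weeks RFP and Confetti was 1.24 ± 0.32 (SE, edgeR quasi-likelihood test, adjusted p = 0.0567), short of the threshold of 0.05. Ccnd1 was called in 4 of 17 alternatives: DESeq2 (adjusted p = 0.00371), no filter on low counts (0.00554) and edgeR without either 4 days RFP library (0.0491 and 0.0488).

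Ccnd3, the D cyclin best known from lymphocytes, read 78.4 and 74.4 CPM in Confetti and 79.1, 92.8, 89.1 and 79.7 in the 4 mosaic YFP libraries. It read 69.6, 49.4, 64.1 and 51.0 in the 4 RFP libraries. All RFP libraries lay below all YFP libraries, a separation that 9.19% of the 12829 tested genes also showed in one or the other direction. The difference was -0.56 ± 0.18 (log2) and missed the threshold (edgeR adjusted p = 0.124).

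Ccnd2 had 15.3 CPM in both Confetti libraries. In the mosaic line, replicate 1 was above replicate 2 in YFP at both times (24.7 against 5.18 and 7.57 against 2.80) and in RFP at 2 weeks (13.7 against 2.64), while 4 days RFP had 13.1 and 19.0. No ordering by colour was visible, and the edgeR difference of RFP against YFP was 0.33 ± 0.59. Without DATP-like cells that difference was -0.94, and with every cell type included it was -0.21.

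Of the CIP/KIP inhibitors, Cdkn1a separated the colours at both times, Cdkn1c at 2 weeks, and Cdkn1b at neither. Cdkn1a measured 183 and 187 CPM in Confetti, and 166, 92.9, 185 and 133 in the YFP libraries. It measured 219, 308, 314 and 363 in the RFP libraries. Every mutant library was above every wildtype library, Confetti included. Of all genes, 9.19% had the RFP and the mosaic YFP libraries apart in one or the other direction, a share that leaves Confetti out. The log2 difference against YFP over both times was 1.04 ± 0.24 (edgeR adjusted p = 0.0861, and 0.0413 with the replicate number as a block). Without DATP-like cells the difference was 0.25 (adjusted p = 0.75). In sums, more cells of a type and more RNA per cell cannot be told apart.

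Cdkn1b ran from 44.9 to 75.4 CPM over the 10 libraries, with the RFP libraries (44.9 to 58.7) inside the range of the YFP libraries (44.9 to 75.4) and Confetti at 65.0 and 73.0. Cdkn1c was low, at 2.05 to 9.39 CPM in 9 libraries and 17.1 in 2 weeks RFP replicate 2. At 2 weeks both RFP libraries (9.39 and 17.1) were above both YFP libraries (5.47 and 6.93), at a time when 53.3% of all genes had the colours apart. Neither gene passed the test in any of the 10 comparisons between groups.

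Of the INK4 inhibitors, Cdkn2a was close to undetected in Confetti and 4 days YFP, low in 4 days RFP and 2 weeks YFP, and highest in mutant cells at 2 weeks. It had 1 UMI in Confetti RFP and 0 in Confetti YFP, where 3 counts would be 0.186 and 0.202 CPM. The 4 days YFP libraries had 0 and 1 UMI and the 4 days RFP libraries 24 and 58, or 1.25 and 6.92 CPM. The 2 weeks YFP libraries had 69 and 52 UMIs, or 2.68 and 8.58 CPM, and the 2 weeks RFP libraries 2723 and 2530, or 36.4 and 63.7 CPM. At each time both mutant libraries were above both wildtype ones. Of all genes, 31.9% had the colours apart in one or the other direction at 4 days and 53.3% at 2 weeks. The wildtype 2 weeks YFP replicate 2 was above both 4 days RFP libraries. From pooled counts the level in 2 weeks RFP was 1420 times that in Confetti, with a 95% counting interval of 255 to 56113 that rests on the 1 Confetti UMI, and 12.1 times that in 2 weeks YFP (10.1 to 14.6). The level in 2 weeks YFP was 118 times that in Confetti (20.7 to 4690.5), and that in 4 days RFP was 80.0 times that in 4 days YFP (14.0 to 3199). These intervals cover counting error only, and the libraries moved the ratios further. The ratio of 2 weeks RFP to 2 weeks YFP was 8.89 from the group means, 5.34 without 2 weeks YFP replicate 1, 17.1 without 2 weeks YFP replicate 2, and 16.8 and 9.57 without 2 weeks RFP replicates 1 and 2. The ratio of 2 weeks RFP to Confetti ran from 739 without Confetti YFP to 1973 without 2 weeks RFP replicate 1, that of 2 weeks YFP to Confetti from 61.2 without Confetti YFP to 266 without 2 weeks YFP replicate 1, and that of 4 days RFP to 4 days YFP from 33.6 without RFP replicate 2 to 187 without RFP replicate 1. No ratio was formed without the library that held the 1 UMI. The group means and the ratios without a library were added after seeing the data. Of cells thinned to 2000 UMIs, 5.24% and 10.6% of 2 weeks RFP cells had a Cdkn2a UMI, 0.108% and 0.98% of 4 days RFP cells, 0.143% and 0.694% of 2 weeks YFP cells, and 0 of 3796 and 0 of 3921 Confetti cells. Before thinning the shares were 14.6% and 30.4% in 2 weeks RFP at its greater depth, and 0.377% and 2.45% in 4 days RFP. Ciliated cells, which served as a type expected to lack Cdkn2a, had 0 of 245 at a median of 5766 UMIs over all libraries together, which allows up to 1.49% and is too few cells to set a background for a single library.

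Cdkn2b, the neighbouring INK4 gene, had 5.71 and 3.43 CPM in Confetti, 5.12 and 5.36 in 4 days YFP and 5.30 and 16.2 in 4 days RFP. It had 6.79 and 19.5 CPM in 2 weeks YFP and 33.8 and 91.7 in 2 weeks RFP, or 62.7 ± 41.0 (SD, n = 2). Only the 2 weeks RFP libraries stood above all others. Of all genes, 53.3% had RFP and YFP apart at 2 weeks and 73.6% had 2 weeks RFP and Confetti apart, in either direction. In cells thinned alike, a Cdkn2b UMI was found in 5.22% and 16.7% of 2 weeks RFP cells and in 0.74% and 1.19% of Confetti cells, and in 3.27% of ciliated cells.

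Trp53 and Mdm2 were both higher in mutant libraries. Trp53 had 27.7 and 28.4 CPM in Confetti and 28.03, 19.1, 23.8 and 21.8 in the YFP libraries. It had 40.2, 44.5, 52.4 and 46.5 in the RFP libraries, all above every wildtype library. Of all genes, 9.19% had RFP and mosaic YFP apart in one or the other direction. The difference over both times was 0.96 ± 0.17 (log2, edgeR adjusted p = 0.0818, and 0.0291 with the block), and 0.65 without DATP-like cells. Mdm2 had 18.6 and 21.7 CPM in Confetti, 18.6 to 20.7 in YFP, and 23.8, 46.4, 33.4 and 26.2 in RFP. No mutant library overlapped a wildtype one, which places Mdm2 among the same 9.19%, with a difference against YFP of 0.73 ± 0.22 (adjusted p = 0.112). Without DATP-like cells it was 0.14.

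**Figure D1:**
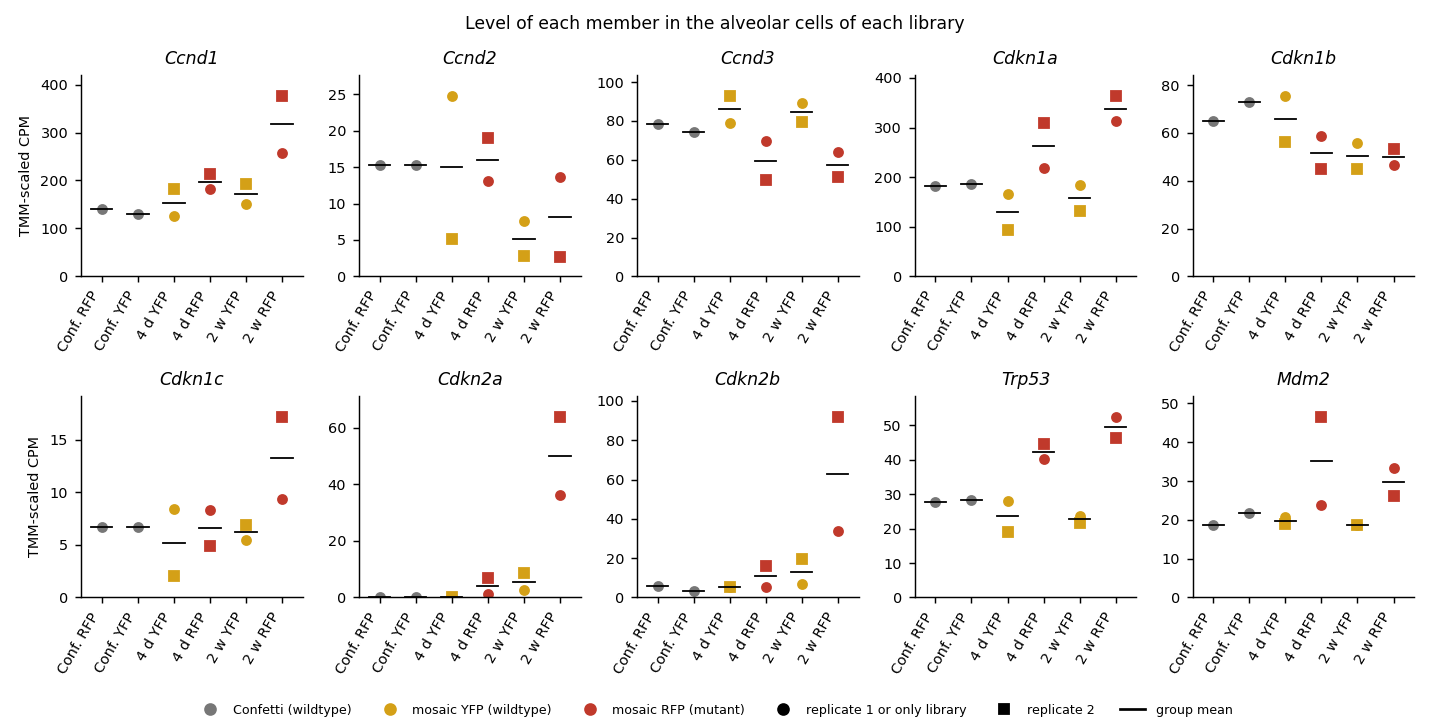
TMM-scaled CPM (y axis, from 0) of each member in the alveolar cells of each library, by group (x axis: Confetti, 4 days and 2 weeks), with circles for replicate 1 or the only library, squares for replicate 2 and a bar for the group mean. Cdkn2a and Cdkn2b stand apart in 2 weeks RFP, the red points of Cdkn1a, Trp53 and Mdm2 lie above the yellow and grey ones, and those of Ccnd3 lie below.

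Tested over all genes, mutant against wildtype cells of the mosaic line gave no member past the threshold with 4 against 4 libraries, where 0% of 12829 genes passed (edgeR quasi-likelihood test with Benjamini-Hochberg adjustment). At an unadjusted p under 0.05 there were 6 members higher (Ccnd1, Cdkn1a, Cdkn2a, Cdkn2b, Trp53 and Mdm2) and 1 lower (Ccnd3), beside 21.6% of all genes. The members' median log2 difference was 0.73 and that of all genes -0.03. DESeq2 called 5 members and 9.86% of genes. Without 4 days RFP replicate 1, edgeR called 5 members and 11.3% of genes. With the replicate number as a block it called 4 members, all higher (Cdkn2a, Cdkn2b, Cdkn1a and Trp53), and 6.97% of genes. At 4 days alone and at 2 weeks alone no member was called, beside 0% and 0.00727% of 13756 genes. At an unadjusted p under 0.05 there were 4 and 5 members higher, beside 5.76% and 16.4% of all genes, while DESeq2 called 1 and 3 members, beside 0.807% and 3.36% of genes.

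Against Confetti, mutant cells at 2 weeks had 2 members called, Cdkn2a (adjusted p = 0.0299) and Cdkn2b (log2 difference 3.82 ± 0.75, adjusted p = 0.0427, edgeR), both higher, where 5.31% of 13756 genes were called (3.41% higher and 1.9% lower). At an unadjusted p under 0.05 there were 5 members higher, beside 31.1% of genes. Both remained called in edgeR without DATP-like cells (adjusted p = 0.0359 and 0.0445), beside 7.39% of 13509 genes. Trp53 (0.82, adjusted p = 0.0839), Cdkn1a (0.87, adjusted p = 0.148) and Mdm2 (0.57, adjusted p = 0.263) were not called. All 10 members had 2 weeks RFP libraries outside the Confetti range, as did 73.6% of all genes. The call of both genes was lost when either Confetti library or 2 weeks RFP replicate 2 was left out and with every cell type included (0% of genes called), and the count fell to 1 without 4 days YFP replicate 1, 4 days YFP replicate 2 or 2 weeks YFP replicate 1.

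No member was called in 2 weeks YFP, 4 days RFP or 4 days YFP against Confetti in edgeR. Of all genes 0.0218% were called in the first (0.0145% higher), 0% in the second and 0.0291% in the third (0.0145% higher and 0.0145% lower). The members higher at an unadjusted p under 0.05 were Cdkn2a in 2 weeks YFP, beside 5.66% of genes, and Cdkn2a, Mdm2 and Trp53 in 4 days RFP, beside 8.83%, with none in 4 days YFP, beside 1.8%. DESeq2 called 1, 1 and 0 members, beside 0.749%, 1.92% and 0.0872% of genes. Between 2 weeks and 4 days no member was called in RFP or in YFP, beside 0% of genes in each. The members with an unadjusted p under 0.05 there were Cdkn2a and Cdkn2b in RFP and Cdkn2a in YFP, beside 11.1% and 1.66% of genes. DESeq2 called 2 and 1 members, beside 0.945% and 0.124% of genes. The change over time was not called different between colours for any member (0% of genes, 0 members at an unadjusted p under 0.05, 0 by DESeq2). These comparisons share their Confetti libraries or those of the mosaic line.

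**Figure D2:**
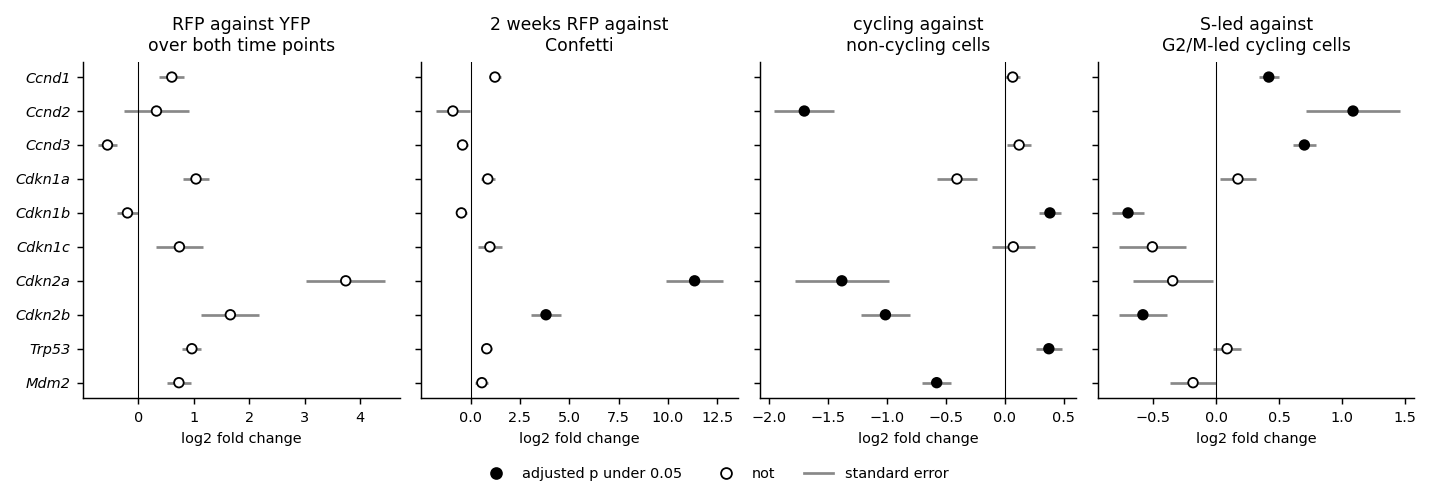
Log2 fold change (x axis) of each member (y axis) in 4 comparisons, with bars for the standard error and filled points for an adjusted p under 0.05. No point is filled for RFP against YFP, 2 for 2 weeks RFP against Confetti, 6 for cycling cells and 5 for S-led cells; the fitted Cdkn2a value against Confetti depends on the prior count because Confetti held 1 UMI.

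Cycling cells were set apart by a list of 52 S and G2/M genes that holds no member. With each cell thinned to 2000 UMIs, 2452 cells had at least 3 UMIs of the list and were called cycling, 21923 had 0, and 5129 lay between and were left out. The cut is a point on a range, with 802 cells at 2 UMIs and 277 at 3. The cycling share was 2.08% to 22.5% over the libraries, lowest in 2 weeks YFP replicate 2 and highest in 2 weeks RFP replicate 1. Median depth before thinning was higher in the cycling class of every library.

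Within libraries, Ccnd2, Mdm2 and Cdkn2b were lower in cycling cells and Cdkn1b and Trp53 were higher, while Cdkn2a had no common direction. Of the 10 members, 2 were called higher and 4 lower in edgeR with the library as a block, where 46.4% of 12300 genes were called (18.8% higher and 27.6% lower). Ccnd2 was lower in 10 of 10 libraries, with 6.06 ± 5.94 CPM in cycling and 13.7 ± 7.83 in non-cycling sums (SD, n = 10). Its paired difference was -1.70 ± 0.26 (log2, edgeR adjusted p = 2.47e-05), and 2 libraries had no Ccnd2 UMI among their cycling cells. Mdm2 was lower in 9 of 10, with 17.7 ± 6.32 against 27.3 ± 10.9 CPM and a difference of -0.58 ± 0.12 (adjusted p = 0.00086).

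Cdkn1b, the p27 inhibitor that keeps resting cells in G1, was higher in the cycling class in 9 of 10 libraries. Its sums were 77.5 ± 29.6 CPM in cycling and 58.9 ± 10.2 in non-cycling cells (0.38 ± 0.09, edgeR adjusted p = 0.00206). The exception was 2 weeks YFP replicate 2, which had 21 cycling cells. Trp53 was higher in 8 of 10, with 43.6 ± 19.6 against 33.9 ± 11.8 CPM (0.37 ± 0.11, adjusted p = 0.00929). On sums thinned to equal depth per cell neither call held, with 0.29 for Cdkn1b (adjusted p = 0.0716) and 0.35 for Trp53 (adjusted p = 0.0682), and with cycling cells taken by cluster Trp53 was not called (adjusted p = 0.0545).

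Cdkn2b was lower in 7 of 10 libraries, with a difference of -1.01 ± 0.21 (edgeR adjusted p = 0.000658). In the RFP libraries at 2 weeks it had 47.9 and 105 CPM in non-cycling cells and 13.8 and 53.5 in cycling cells. Cdkn2a had 54.1 and 74.2 CPM in the non-cycling and 9.01 and 33.7 in the cycling cells of the same libraries. Over all libraries Cdkn2a was lower in 4, higher in 4 and at 0 in both classes in 2, and its called difference of -1.38 ± 0.40 (adjusted p = 0.00939) turned to 0.95 in DESeq2 (adjusted p = 0.396). The call was also lost without 2 weeks RFP replicate 1 (-0.53, adjusted p = 0.289) and without 2 weeks RFP replicate 2 (adjusted p = 0.0521). DATP-like cells were 3.11% cycling against 7.47% of unnamed, 1.73% of primed AT2-like and 0.354% of AT2-like cells, shares that leave out the cells of the cycling-like cluster, which held 45.6% to 89.8% of a library's cycling cells. Without DATP-like cells Cdkn2a (0.32, adjusted p = 0.517) and Cdkn2b (-0.25, adjusted p = 0.134) were not called, while Ccnd2 (-1.28), Mdm2 (-0.38), Cdkn1b (0.33) and Trp53 (0.70) were, 4 of 10 members beside 53.7% of all genes.

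Ccnd1 and Ccnd3 were near equal in both classes. Ccnd1 had 215.6 ± 76.1 CPM in cycling and 206 ± 79.5 in non-cycling sums, and Ccnd3 79.9 ± 14.6 and 76.6 ± 17.9, with no call for either. Cdkn1c (0.07 ± 0.18) was not called. Cdkn1a had a difference of -0.41 ± 0.17 (edgeR adjusted p = 0.0573) that split by colour.

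**Figure D3:**
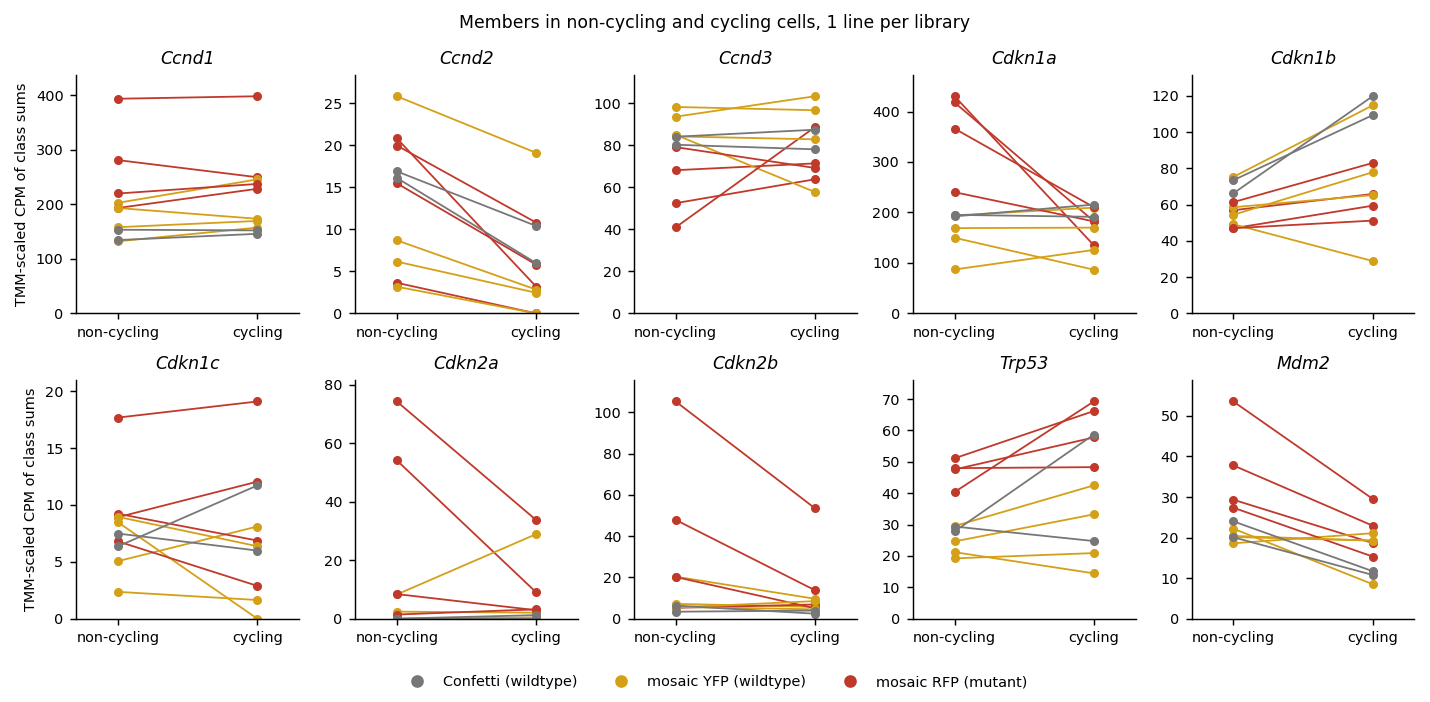
TMM-scaled CPM (y axis, from 0) of each member in the summed non-cycling and cycling cells (x axis), with 1 line for each of the 10 libraries coloured by group. All 10 lines of Ccnd2 fall, 9 of Mdm2 fall and 9 of Cdkn1b rise, and the 4 red lines of Cdkn1a fall while grey and yellow lines show no common direction.

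Cdkn1a was lower in cycling cells in 4 of 4 mutant libraries, from 240.2, 366, 418 and 430.3 CPM in non-cycling to 182, 210.5, 183 and 135 in cycling cells. In the YFP libraries non-cycling cells had 169, 87.0, 194 and 149.8 CPM and cycling cells 169.9, 126, 209.5 and 86.7, lower in 1 of 4. The mutant non-cycling cells thus held the high Cdkn1a level, and the cycling cells of all libraries lay between 86.7 and 216 CPM. Tested within RFP, 5 members were called lower (Cdkn1a -1.03 ± 0.17, adjusted p = 9.93e-05, with Cdkn2a, Cdkn2b, Ccnd2 and Mdm2) and Trp53 higher, beside 35.4% of 12090 genes in edgeR (17% higher and 18.4% lower). Without DATP-like cells Cdkn1a (-0.52, adjusted p = 0.000304), Ccnd2, Mdm2 and Trp53 were called there, beside 47.5% of genes, while Cdkn2a (-0.04) and Cdkn2b (-0.25) were not. The Trp53 call within RFP was lost in DESeq2 (adjusted p = 0.0722), on thinned sums (0.297), by cluster (0.15), without 4 days RFP replicate 1 (0.0915) and without 2 weeks RFP replicate 1 (0.0999). Within YFP no member was called, beside 26.5% of genes, with 1 higher and 1 lower at an unadjusted p under 0.05, beside 36.8% of genes, and 0 by DESeq2, beside 23.9%. The difference between the colours was tested directly and called 0 members and 0.0331% of genes (0.0165% higher and 0.0165% lower), with 4 members lower at an unadjusted p under 0.05, beside 12.4% of genes. For Cdkn1a it was -1.15 ± 0.25 (edgeR adjusted p = 0.0815, unadjusted p = 0.000237). Cdkn2a (-2.53), Cdkn2b (-1.03) and Mdm2 (-0.68) also had an unadjusted p under 0.05. DESeq2 called Cdkn1a (adjusted p = 0.0419), as did edgeR without 4 days RFP replicate 1 (adjusted p = 0.000248). Over the alternatives for Cdkn1a the adjusted p ran from 1.88e-11 to 0.333 and the difference from -1.49 to -0.74, and without DATP-like cells it was -0.74 (adjusted p = 0.0542).

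Among cycling cells, D-cyclin RNA was higher in cells led by S genes and Cdkn1b RNA in cells led by G2/M genes. There were 742 S-led and 1601 G2/M-led cells, and 8 libraries had at least 20 of each. Of the 10 members, 3 were called higher in S-led cells and 2 lower, where 16% of 8808 genes were called (8.32% higher and 7.69% lower). Ccnd3 had 128 ± 31.8 CPM in S-led and 74.0 ± 13.8 in G2/M-led sums (SD, n = 8) and was higher in 8 of 8 libraries (0.70 ± 0.09, edgeR adjusted p = 3.15e-06). Ccnd1 had 285 ± 106 and 211 ± 64.5 CPM and was also higher in 8 of 8 (0.42 ± 0.08, adjusted p = 0.000313). Ccnd2 was higher in 6 of 8 (1.09 ± 0.37, adjusted p = 0.0479) on few counts, 0 to 39 UMIs per sum, and its call was lost when any one of 5 libraries was left out (Confetti RFP, Confetti YFP, either 4 days RFP library, 4 days YFP replicate 2), with a largest adjusted p of 0.189.

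Cdkn1b had 49.4 ± 14.0 CPM in S-led and 95.5 ± 32.1 in G2/M-led cells, lower in S-led cells in 8 of 8 libraries (-0.70 ± 0.12, edgeR adjusted p = 0.000161). The gap was widest in Confetti, with 24.0 against 153 CPM in RFP and 69.9 against 131 in YFP, from 21 and 20 S-led cells. Cdkn2b was lower in S-led cells in 5 of 8 libraries (-0.58 ± 0.19, adjusted p = 0.0356), a call that was lost without 2 weeks RFP replicate 1 (adjusted p = 0.0695) and in DESeq2 (0.388). Cdkn1a, Cdkn1c, Cdkn2a, Trp53 and Mdm2 were not called.

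**Figure D4:**
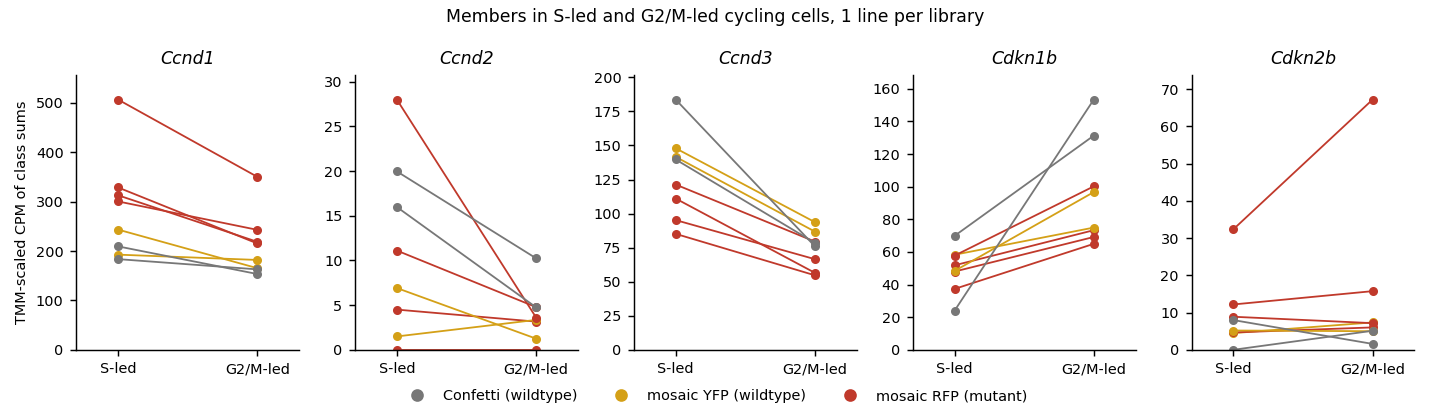
TMM-scaled CPM (y axis, from 0) of 5 members in summed S-led and G2/M-led cycling cells (x axis), with 1 line for each of 8 libraries. All 8 lines fall for Ccnd1 and Ccnd3 and rise for Cdkn1b.

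The members also varied between cell states, which are clusters named from marker genes: 13592 AT2-like, 7948 primed AT2-like, 2556 DATP-like (damage-associated transient progenitor), 2133 cycling-like and 3351 unnamed cells. The clusters were made from all genes, so the levels are a description with no test. DATP-like cells had the highest Cdkn1a, at 649, 751 and 775 CPM in the 3 libraries with at least 50 such cells (4 days RFP replicate 2 and both 2 weeks RFP libraries), where AT2-like cells had 148 to 394 and primed AT2-like cells 71.6 to 208. They also had the highest Mdm2 (40.8 to 94.1 CPM) and Trp53 (74.3 to 96.5) and the lowest Ccnd3 (11.3 to 42.4). Ccnd2 was 43.6 and 51.2 CPM in the DATP-like cells of 4 days RFP replicate 2 and 2 weeks RFP replicate 1 but 6.45 in 2 weeks RFP replicate 2. Ccnd2 also differed between the AT2-like states, with 10.9 to 25.2 CPM in AT2-like and 0 to 4.85 in primed AT2-like cells. Discarded immune cells had 163 CPM of Ccnd2.

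Most Cdkn2a RNA lay in DATP-like cells. They held 84.3% and 78.1% of the Cdkn2a UMIs of the 2 weeks RFP libraries while making up 20.2% and 39.8% of the cells. AT2-like cells held 2 UMIs in 13592 cells and primed AT2-like cells 9 in 7948, against 4424 in the 2556 DATP-like cells. Within DATP-like cells the level was 14.7 CPM in 4 days RFP replicate 2 and 147 and 136 in the 2 weeks RFP libraries. Their 2 clusters differed: the one led by Procr, S100a6 and F3 had 88.7 CPM and the one led by Gzme and Spp1, 93.6% of it from 2 weeks RFP replicate 1, had 299 CPM. Cdkn1a stood at 698 and 943 CPM in the same clusters. Outside DATP-like cells, the unnamed cluster led by Meg3, Dlk1 and Cd177 had 30.8 CPM of Cdkn2a and 46.8 of Cdkn2b. Of its cells 86.4% came from 2 weeks RFP replicate 2. Its Cdkn2a level was 86.0 CPM in 2 weeks RFP replicate 1 and 23.1 in replicate 2. The Procr-led cluster had 48.8 and 135.6 CPM in the same libraries, so the order of the 2 clusters differed between them.

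The Cdkn2a UMIs of the wildtype-labelled libraries lay in few cells. In 2 weeks YFP replicate 1, 63 of 69 UMIs came from 29 DATP-like cells, and in replicate 2, 28 of 52 came from 29 such cells. RFP and YFP libraries of the same number shared 12 and 6 barcodes at 2 weeks, and the shared YFP barcodes had 0 Cdkn2a UMIs. Whether the cells carry the mutant allele cannot be read from these counts.

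AT2-like cells fell into 3 clusters, across which Cdkn1a, Trp53 and Cdkn1c varied, again as a description. The cluster led by Nfkbia, Cxcl2 and Atf3, immediate early and NF-κB response genes, had 344 CPM of Cdkn1a over all libraries, while the cluster led by AY036118, Bex2 and Cbr2 had 107 and the one led by Gpx3 and Pon1 had 124. The haemoglobin genes Hbb-bs and Hba-a1 were among the 10 leading genes of the cluster at 107. The rRNA-like transcripts AY036118 and Gm42418 were among those of the clusters at 107 and at 124. The part of these transcripts in the difference was not tested. In Confetti RFP the 3 values were 352, 110.1 and 127, and in Confetti YFP 354, 126 and 128. Trp53 had 45.2, 21.2 and 21.3 CPM and Cdkn1c 12.4, 4.87 and 3.94 in these clusters.

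In both 2 weeks RFP libraries, cells with a Cdkn2a UMI more often had one of Cdkn2b and Cdkn1a. At 2000 UMIs per cell, Cdkn2b was detected in 25.5% of 212 Cdkn2a-positive and 4.10% of the other cells of 2 weeks RFP replicate 1, and in 36.2% of 293 and 14.4% in replicate 2. Cdkn1a was detected in 67.9% against 34.6% and in 71.0% against 29.4%. The other libraries had 0 to 14 Cdkn2a-positive cells. Their Cdkn1a share was 71.4% of 14 against 32.3% in 4 days RFP replicate 2 and 50% of 4 against 26.7% in replicate 1. It was 100% of 6 against 25.8% in 2 weeks YFP replicate 1 but 14.3% of 7 against 15.8% in replicate 2. The 1 such cell of 4 days YFP replicate 2 had no Cdkn1a UMI. Mdm2 was detected in 8.65% of Cdkn1a-positive and 4.35% of other cells of 2 weeks RFP replicate 1, in 8.98% and 2.79% in replicate 2, and in 15.4% and 4.27% in 4 days RFP replicate 2. In Confetti the shares were 4.34% and 3.31% in RFP and 4.71% and 4.31% in YFP. Cells of a library share their source, and these shares carry no test.

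**Figure D5:**
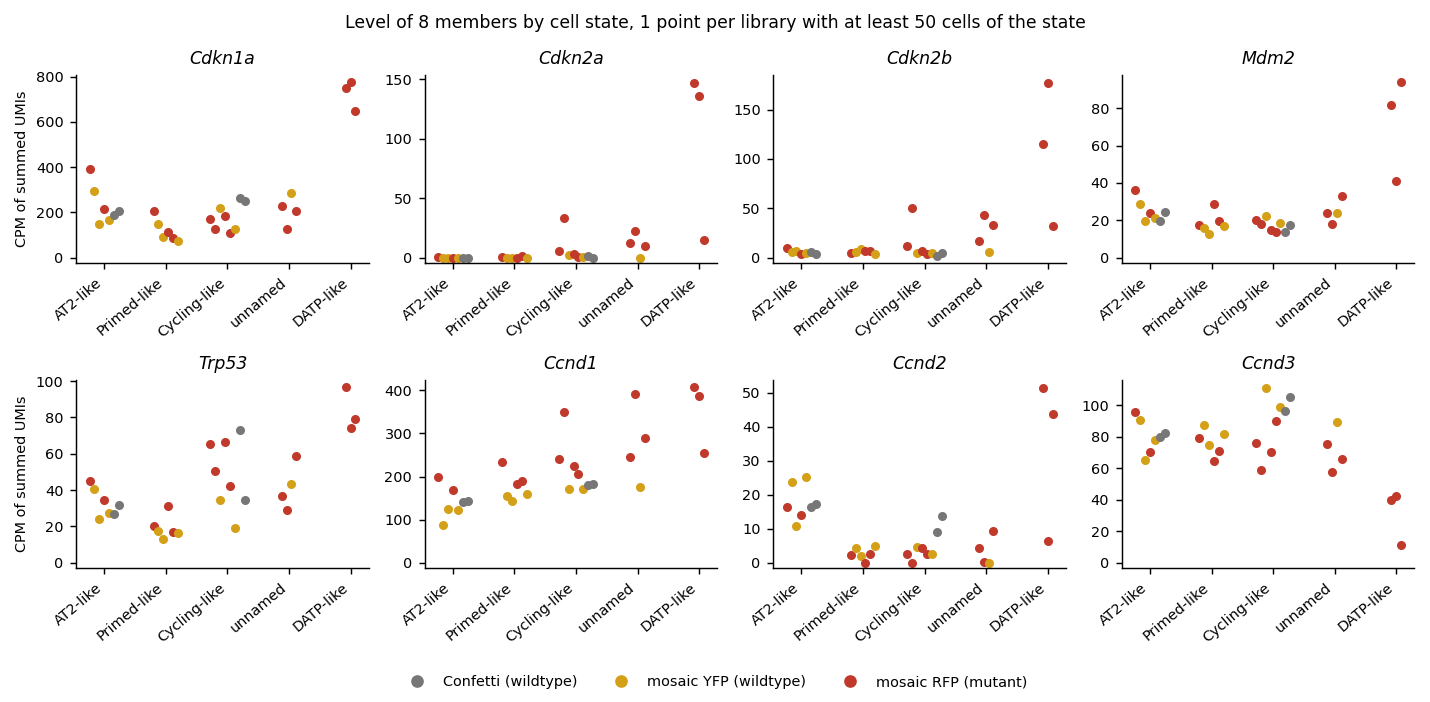
CPM of summed UMIs (y axis) of 8 members by cell state (x axis), with 1 point for each library holding at least 50 cells of the state, coloured by group. The 3 DATP-like points, all mutant, are highest for Cdkn1a, Mdm2 and Trp53 and lowest for Ccnd3, and the AT2-like and primed AT2-like points of Cdkn2a lie at or near 0.

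Other genes of the pathway were taken from 5 lists. In mutant against wildtype cells over both times, none of the 22 genes of the cyclin D and RB-E2F axis was called, with Cdk6, the kinase partner of D cyclins (log2 difference 2.00), and Myc (2.59) at the smallest p. None of 24 p53 targets was called either, with Gdf15 (1.54, edgeR adjusted p = 0.0567) and the death receptor Tnfrsf10b (2.12) at the smallest p. The same held for 10 p53 regulators, 8 repressors of the Cdkn2a locus and 9 senescence-associated genes, while 5, 9, 0, 1 and 6 genes of the 5 lists were higher at an unadjusted p under 0.05, beside 21.6% of all genes in either direction.

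In 2 weeks RFP against Confetti, Cdk6 was higher (2.26, edgeR adjusted p = 0.0451), with 3.23 and 3.36 CPM in Confetti and 16.2 and 15.4 in 2 weeks RFP. Of 25 p53 targets, 3 were called, all higher, where 3.41% of all genes were: Gdf15, a stress-induced cytokine (1.69), the antiproliferative gene Btg2 (1.49) and the death receptor Fas (1.23). Gdf15 rose from 70.2 and 77.1 to 243 and 232 CPM, whereas Btg2 was also 222 and 168 CPM in 2 weeks YFP against 90.1 and 79.2 in Confetti. Ezh2, the catalytic subunit of Polycomb complex PRC2, was the 1 of 8 locus repressors called, higher by 1.41, with 27.9 and 24.0 CPM against 10.7 and 8.88. Of the senescence-associated list 3 of 10 were called, all higher: Plaur, Hmga2 and Lmnb1 (1.29). Lmnb1, a lamin that is usually lost in senescence, went from 12.7 and 11.3 to 31.3 and 27.1 CPM, and Ezh2 and Lmnb1 were also among the genes higher in cycling cells. These calls rest on single libraries: without Confetti RFP or Confetti YFP 1 gene of all tested was called, without 2 weeks RFP replicate 2 there were 2, and with every cell type included there were 0.

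In cycling cells 18 of 22 genes of the RB-E2F axis were higher and 1 lower, beside 18.8% and 27.6% of all genes, led by E2f8 (6.58), E2f7 (5.49), Cks1b (4.00) and Ccne2 (3.90, edgeR). Of 24 p53 targets 14 were lower and 1 higher: Pmaip1 (-2.60), Trp53inp1 (-1.57) and Phlda3 (-1.08) fell and Pidd1 (2.27) rose. The checkpoint kinases Chek1 (3.50), Chek2 (2.20), Atr (0.73) and Atm (0.71) led the 5 of 10 p53 regulators that were higher, and 2 were lower. Of 8 locus repressors 3 were higher, the PRC2 subunits Ezh2 (3.04), Suz12 (1.06) and Eed (0.46), and Ring1 was lower (-0.49). Of 9 senescence-associated genes Lmnb1 (3.16) and Il6 (0.50) were higher and 2 were lower, among them Hmga2 (-2.27). In S-led against G2/M-led cells, where 8.32% of all genes were higher and 7.69% lower, 7 of 21 axis genes were higher, among them E2f1 (1.83) and Ccne2 (1.62), and 4 were lower, among them Cdkn2d, the INK4 protein p19Ink4d (-1.92), and Cks1b (-1.31). Chek1 (1.06) and Atm (0.59) were higher, Lmnb1 was lower (-0.80), and 0 of 19 p53 targets and 0 of 7 locus repressors were called, with 2 and 1 at an unadjusted p under 0.05.

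Across the 10 libraries the genes whose levels ran most like Ccnd1 were Sfxn1 (Pearson r = 0.983), Cysltr1 (0.981) and Shmt1 (0.98), on log2(CPM + 0.5). Those most like Cdkn1a were Nop56 (0.968), Cav2 (0.963) and Camk2d (0.963). Those most like Cdkn2a were B4galt6 (0.995), Trbc2 (0.988) and Glipr1 (0.987). The libraries fall into groups and differ in depth and cell states, so these r values describe the profiles and carry no test.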

How the data were processed

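Single-cell RNA-seq of sorted EpCAM+ RFP+ or YFP+ cells was measured in 10 libraries. Each deposited matrix holds raw counts of UMIs per gene and barcode. The authors ran Cell Ranger (5.0.1 in the file headers, 3.1.0 in the submitters' processing notes) on GRCm38, and the counts are not normalized. The labels give 10x chemistry v2 and the methods v3. FastQC 0.11.3 and MultiQC 1.8 are also named in the processing notes. No column of another series was present.

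Barcodes with under 1000 genes, over 50000 UMIs or over 15% mitochondrial UMIs were left out, as in the study's methods. The sets of barcodes removed were 9152, 119 and 1534 and overlap. Cells were clustered with scanpy 1.11.5 (5000 variable genes, 30 components, 20 neighbours, Louvain resolution 0.8 with igraph 0.11.9). Clusters of 4 other cell types were removed. Clusters were named from marker lists when at least 3 markers were found in at least 25% of their cells. The score a name needed was set after the clusters were seen, and the 3351 unnamed cells are 11.3% of alveolar cells. No doublets were removed in the main analysis, and 817 cells with the highest Scrublet scores were removed in an alternative.

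UMI counts were summed per library, and per library and class, and tested with edgeR 4.0.16 (R 4.3.3; TMM, filterByExpr, quasi-likelihood test, Benjamini-Hochberg adjustment over all genes tested, threshold 0.05). The library sums were fitted with 6 groups as coefficients, RFP against YFP with colour and time over 8 libraries, and classes with the library as a block. Genes of the S and G2/M lists were left out of the class tests. Cells under 2000 UMIs (76) were left out of the classes. On simulated counts with independent libraries the fits recovered most genes changed by known folds. The simulated spread was set and not taken from these libraries, so the check gives no sensitivity for these data. Library totals range from 7170585 to 69676540 UMIs. On totals scaled by TMM a count of 3 is 0.0401 to 0.495 CPM. Intervals are 95%, exact, and cover counting error only. Alternatives were DESeq2 1.42.0, RLE size factors, no filter, other cycling cuts, thinned sums, doublet removal, all cell types, non-cycling cells only, a replicate block and leaving out each library.

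All 10 members are named, and of each pathway list and comparison up to 4 called genes with the largest change, or the 2 with the smallest p. The members and lists were chosen with earlier results of these data known. Replicate libraries of a group differed beyond counting error. Other libraries of the study were not analysed here, and some genes are not reported here.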

Additional observations from a re-analysis of the deposited data

Results flagged for a closer look

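In the 4 mosaic YFP libraries, Cdkn2b was far above the others in 2 weeks YFP replicate 2 (19.5 CPM, with 5.12, 5.36 and 6.79 in the rest). Mdm2 was apart in 4 days YFP replicate 1, at 20.7 CPM against 18.6 to 18.9. Of 20 groups of 4 libraries checked, 2 had such a library, and chance gives about 1 in 20. The Mdm2 gap is under 2 CPM.

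Immune cells that were removed from every comparison held Cdkn2a at 4.22 CPM in 4 days RFP replicate 2, 4.81 in 4 days YFP replicate 2, 6.07 and 24.7 in 2 weeks RFP replicates 1 and 2, and 13.3 and 55.8 in 2 weeks YFP replicates 1 and 2. In the immune cells of both Confetti libraries it was at 0. Summed over libraries these cells had 549 Cdkn2a UMIs in 2429 cells, and endothelial cells 25 in 337.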

How the results depend on the processing

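Of 738 member differences recomputed under alternatives, 663 kept direction and side of the threshold, 24 lost a call, 34 gained one and 17 turned sign. For the cycling effect between colours they cover the 4 members with an unadjusted p under 0.05. Of the others there, Cdkn1c kept its direction in 11 of 19 alternatives, Trp53 in 12, Cdkn1b in 15, Ccnd1 and Ccnd3 in 17 and Ccnd2 in 18. Of 265 counts of called members, 225 stayed within 1.5 times. DESeq2 called 5 members for RFP against YFP, 1 at 4 days, 3 at 2 weeks, 1 each for 2 weeks YFP and 4 days RFP against Confetti, 2 and 1 for 2 weeks against 4 days in RFP and YFP, and 1 for the cycling effect between colours (9.86%, 0.807%, 3.36%, 0.749%, 1.92%, 0.945%, 0.124% and 0.43% of all genes). Without the filter on low counts the numbers were 5, 1, 4, 3, 2, 2, 3 and 2, beside 9.46%, 2.42%, 6.61%, 2.57%, 3.92%, 3.33%, 0.936% and 1.82% of genes, with 2 for the cycling effect in YFP (16.1%). All cell types included left 0 for 2 weeks RFP against Confetti (0%). Cycling cells from 6 UMIs gave 1 between colours (0.321%) and 2 in YFP (26.4%), thinned sums 1 between colours (0.365%) and 3 of the 5 members tested between phases (13.8%), and in YFP doublet removal gave 1 (25.5%) and leaving out DATP-like cells 3 (32.7%).

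Signs turned for Ccnd2 in RFP against YFP (-0.21 with all cell types, -0.94 without DATP-like cells, -0.33 without 2 weeks RFP replicate 1) and in 2 weeks RFP against Confetti (0.0288 with all cell types). They turned without DATP-like cells for Cdkn1a (-0.14) and Mdm2 (-0.0099) against Confetti and for Cdkn2a (0.32; DESeq2 0.95) and Ccnd3 (-0.0022) in cycling cells. In cycling cells they also turned for Ccnd1 (-0.0277 from 6 UMIs, -0.0225 by cluster) and Cdkn1c (-0.10 by cluster, -0.0381 without doublets, and -0.0523 to 0.1739 over leaving out single libraries, below 0 without 2 weeks RFP or YFP replicate 1), and between phases for Cdkn1a (-0.0918, thinned) and Cdkn2a (0.14, DESeq2). The cause was not tested. Leaving out DATP-like cells was chosen after seeing the data.

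Leaving out 1 library at a time, with the range of all genes called in parentheses, gave 0 to 5 members for RFP against YFP (0% to 11.3%), 0 to 1 at 4 days (0% to 1.46%), 0 at 2 weeks (0% to 0.00727%), 0 to 3 and 0 to 1 for 2 weeks and 4 days RFP against Confetti (0.00723% to 14% and 0% to 2.44%), 0 for both YFP groups against Confetti (0% to 0.0514% at 2 weeks and 0% to 0.0217% at 4 days), and 0 for the changes over time in RFP (0% to 0.00727%) and YFP (0% to 0.00735%) and their difference (0%). It gave 5 to 7 for cycling cells (41.1% to 44.7%), 0 to 1 in YFP (16.6% to 28.5%), 5 to 7 in RFP (23.7% to 35.5%), 0 to 1 between colours (0% to 4.92%) and 4 to 5 between phases (13.2% to 16.6%).

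Equal replicate numbers share only a number by the labels. The differences between replicates 1 and 2, over 13756 genes, correlated between RFP and YFP at 0.469 at 4 days and 0.605 at 2 weeks. Between the other pairs of groups they correlated at 0.0166 to 0.287. The main RFP against YFP fit did not use the replicate number. A replicate block called 4 members for RFP against YFP (6.97% of genes) and 0 in the 5 other comparisons it could be fitted to. In Confetti and 4 days YFP a fold of Cdkn2a rests on 0 or 1 UMI.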
